A study of Homo sapiens with 2 samples.

Results

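Genes that make or carry the antigens against which neuroblastoma immunotherapies are directed were followed in SH-SY5Y cells (SY5Y), an established human neuroblastoma line grown as untreated culture. The 8 genes were B4GALNT1, ST8SIA1, ST3GAL5, B3GALT4, GPC2, L1CAM, CD276 and NCAM1, chosen by name and matched by Ensembl identifier among the 33538 genes of the count table. All 8 had at least 1 unique molecular identifier (UMI, a tag that marks 1 captured transcript) in the kept cells, in which 17881 of the 33538 genes had one. SY5Y is a subclone of a single line, so the values describe this line and not tumours.

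A single culture had been divided into 2 flasks, SplitA and SplitB, with the same medium and no treatment, and each flask was labelled with its own hashtag, an antibody that carries a DNA barcode, before both were pooled and sequenced in 1 droplet run. The antibody barcodes that gave each cell its flask, and with it the only replicate structure of the data, were the following 15 bases each.
SplitA, Hashtag-1: GTCAACTCTTTAGCG
SplitB, Hashtag-2: TGATGGCCTATTGGG
Of 2879 barcodes, 899 cells of SplitA and 1195 of SplitB carried 1 hashtag and at least 1000 genes. They held 5852780 and 8066440 UMIs, with medians of 6063 and 6346 UMIs per cell. The neuroblastoma identity of the culture was checked with 12 genes of sympathoadrenal neuroblastoma cells, of which 11 were at 118 to 693 CPM (UMIs per 1000000 UMIs of the flask, given as a mean of the flasks) and TH, the tyrosine hydroxylase of catecholamine synthesis, was at 1.33 CPM. Of 14 genes of cells that a pure culture should lack, 11 had no UMI and HBA1 had 1, whereas the epithelial EPCAM had 27 UMIs and the collagen gene COL1A1 24 over both flasks.

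GD2, a disialoganglioside dense on neuroblastoma cells, is the target of approved antibodies. It is built on lactosylceramide in the Golgi: ST3GAL5 adds the sialic acid that makes GM3, ST8SIA1 adds another to make GD3, B4GALNT1 transfers N-acetylgalactosamine to make GD2, and B3GALT4 extends GD2 with galactose to GD1b. The other members are surface proteins under study as targets of antibodies and engineered T cells: the neural adhesion molecules L1CAM and NCAM1 (CD56), the B7 family member CD276 (B7-H3) and the heparan sulfate proteoglycan GPC2 (glypican 2). Only RNA was measured, and neither the gangliosides nor the proteins were assayed.

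The surface antigens were far above the ganglioside enzymes. The 4 antigen genes together reached 216 CPM in SplitA and 235 CPM in SplitB, against 29.7 and 24.7 CPM for the 4 enzymes. The 8 genes summed to 246 CPM in SplitA (exact Poisson 95% interval 233 to 259) and 259 CPM in SplitB (248 to 271), so both intervals overlapped. Each UMI marks 1 poly-A end, so that levels of different genes are compared here as captured transcripts in CPM, with no scaling by length and with no distinction between isoforms. Intervals in the text cover counting error only.

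NCAM1 was the most abundant member. It had 589 UMIs in SplitA and 845 in SplitB, or 101 and 105 CPM, a mean of 103 ± 2.91 (SD, n = 2 flasks), and ranked at 1025 among all genes. L1CAM followed with 327 and 497 UMIs, 55.9 and 61.6 CPM and a mean of 58.7 ± 4.06 CPM. NCAM1 was thus 1.75 times as high as L1CAM, and the intervals of these genes did not overlap in either flask.

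CD276 had 196 and 316 UMIs, which were 33.5 CPM in SplitA and 39.2 CPM in SplitB (36.3 ± 4.02). GPC2 had 151 and 235 UMIs, 25.8 and 29.1 CPM (27.5 ± 2.36). The counting intervals of CD276 and GPC2 overlapped in SplitA, at 29.0 to 38.5 and 21.8 to 30.3 CPM, and did not in SplitB, at 35.0 to 43.7 and 25.5 to 33.1 CPM. Their order was therefore the same in both flasks but not separated in each.

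Among the enzymes, ST3GAL5 stood at 13.5 CPM in SplitA from 79 UMIs and 12.03 CPM in SplitB from 97 UMIs (12.8 ± 1.04). B4GALNT1, the GD2 synthase, stood at 11.3 and 9.55 CPM from 66 and 77 UMIs (10.4 ± 1.22). The intervals of these neighbours overlapped in both flasks, so their order was not resolved at this depth. Both lay above the median of 6.12 CPM over the genes with a UMI.

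B3GALT4 had 26 UMIs in SplitA and 22 in SplitB, 4.44 and 2.73 CPM (3.58 ± 1.21). ST8SIA1, the GD3 synthase that stands between GM3 and GD2, was the scarcest member with 3 UMIs in each flask, 0.513 and 0.372 CPM (0.442 ± 0.0995), and ranked at 13977. Its upper limits were 1.498 CPM in SplitA and 1.09 CPM in SplitB, below the lower limits of B3GALT4, 2.90 and 1.71 CPM. The level of ST8SIA1 was below those of EPCAM at 1.93 CPM and COL1A1 at 1.72 CPM, genes of the list that the culture should lack. No cell type without these genes was in the run, so that the share which free RNA alone could give was not measured. The order of the 8 levels was the same in both flasks, and no member's flask intervals were apart.

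**Figure D1:**
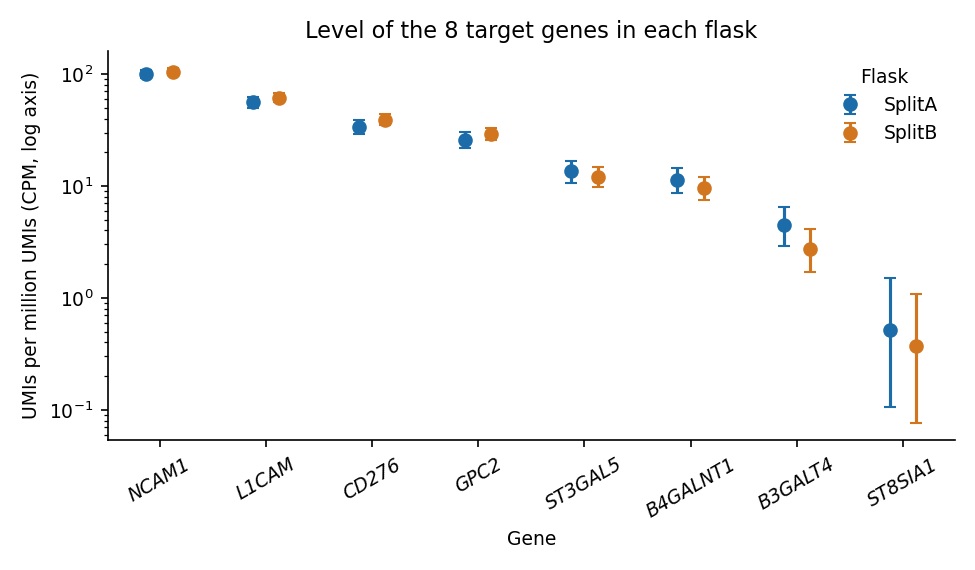
Level of each target gene (x axis, in order of the mean) in CPM on a log axis (y axis). Points are the flasks SplitA and SplitB and bars are exact Poisson 95% intervals; NCAM1 lies at 101 and 105 CPM, and ST8SIA1, with 3 UMIs in each flask, at 0.513 and 0.372 CPM.

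The count table does not state whether strand was used, and several members overlap genes on the opposite strand. In GENCODE release 44 (GRCh38), NCAM1 lies at chr11:112961275-113278436 and overlaps the antisense RNA genes ENSG00000247416 with 126 UMIs and TTC12-DT with 56. ST8SIA1, at chr12:22063773-22437041, overlaps CMAS, the CMP-sialic acid synthetase, which had 450 UMIs. B3GALT4, at chr6:33277123-33284832, overlaps WDR46 with 573 UMIs, and B4GALNT1, at chr12:57623409-57633239, overlaps the pseudogene SLC26A10P with 73 UMIs. ST3GAL5 at chr2:85837120-85905199 overlaps table genes of the opposite strand without a UMI. L1CAM at chrX:153861514-153886173 overlaps ENSG00000284987 on the same strand, and ST8SIA1 overlaps ENSG00000256714 on the same strand, both without a UMI. CD276 at chr15:73683966-73714514 and GPC2 at chr7:100169606-100177381 overlap none. Without strand, reads of pairs on opposite strands cannot be told apart where they overlap. For pairs on the same strand, strand cannot separate them.

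The share of cells with a UMI followed the levels. NCAM1 was seen in 387 of 899 cells of SplitA, 43.0% (exact binomial 95% interval 39.8 to 46.4), and in 543 of 1195 cells of SplitB, 45.4% (42.6 to 48.3). L1CAM was seen in 27.4% (24.5 to 30.4) and 28.6% (26.1 to 31.3) of cells. CD276 followed at 19.0% and 22.3%, and GPC2 at 14.6% and 17.5%. Even NCAM1, the most abundant member, was without a UMI in more cells than had one.

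The enzymes were rarer still. ST3GAL5 had a UMI in 8.01% of the cells of SplitA and 7.53% of SplitB, B4GALNT1 in 6.90% and 6.19%, and B3GALT4 in 2.89% and 1.84%. ST8SIA1 was seen in 3 cells of each flask, 0.334% (0.0689 to 0.972) and 0.251% (0.0518 to 0.732). Over both flasks, 1760 of the 2094 cells (84.0%) had no UMI of any enzyme, 317 had a UMI of 1 enzyme, 16 of 2, 1 of 3 and 0 of all 4.

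A cell without a UMI is not a cell without the transcript at this depth. If every cell held the same proportion of a gene's transcripts, Poisson counting at each cell's own UMI total would leave NCAM1 visible in 46.2% of cells in SplitA and 48.6% in SplitB, ST3GAL5 in 8.35% and 7.74%, and B4GALNT1 in 7.03% and 6.20%. The formula lay within the interval of the counted share for all 8 genes in SplitA and for 6 in SplitB. The exceptions in SplitB were L1CAM, with an upper limit of 31.3% against 33.0% by the formula, and NCAM1, with 48.3% against 48.6%. When each cell was thinned to 2000 UMIs, which left out 1 cell of SplitA and 2 of SplitB, NCAM1 was seen in 18.0% and 18.9% of cells, L1CAM in 10.1% and 11.9%, and B4GALNT1 in 2.00% and 1.84%.

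**Figure D2:**
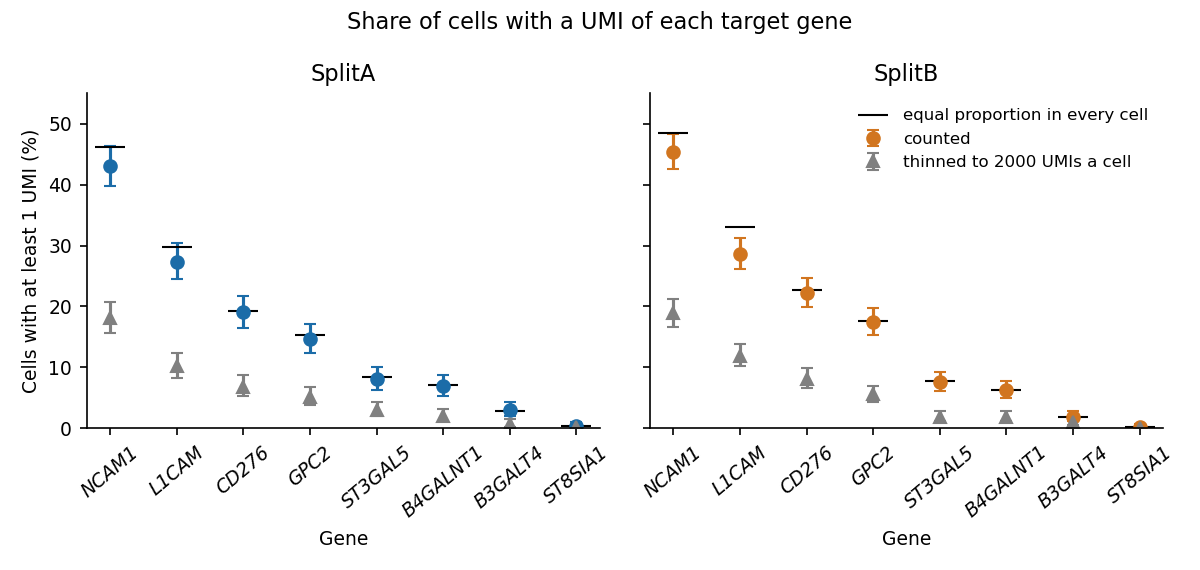
Share of cells with at least 1 UMI (y axis, percent) of each target gene (x axis) in SplitA and SplitB, as counted (coloured points) and after thinning every cell to 2000 UMIs (grey triangles), with exact binomial 95% intervals. Black dashes are the share that equal proportions in every cell would give; in SplitB the dash of L1CAM, 33.0%, lies above the interval of the counted share.

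Variation between cells was compared with that of counting. The ratio of the variance of a gene's UMIs over cells to the variance that Poisson counting gives at the cells' totals is 1 for a gene of equal proportion in every cell. L1CAM had the largest ratio of the members, 1.28 in SplitA and 1.48 in SplitB, and NCAM1 followed with 1.21 and 1.25. Genes seen in 5% of cells or more numbered 7992 and 8168. Among them, whose median ratio was 1.04 in both flasks, 6.01% and 2.61% of genes lay above L1CAM and 9.32% and 7.63% above NCAM1. At an equal relative spread between cells the ratio is larger for a gene with more UMIs per cell. Genes were not matched for level, so the order of the ratios is not an order of heterogeneity.

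The remaining members, all at lower levels, had ratios nearer to 1, which does not show equal proportions in every cell. CD276 had ratios of 1.03 and 1.03, GPC2 of 1.09 and 1.01, B4GALNT1 of 1.03 and 1.00, and ST3GAL5 of 1.10 and 1.05, close to the median of all genes. ST8SIA1 and B3GALT4 never exceeded 1 UMI in a cell, and B4GALNT1 never exceeded 2. L1CAM reached 7 UMIs in a cell of SplitA and 8 in a cell of SplitB, and 11 and 32 cells held 3 or more. NCAM1 reached 6 and 7 UMIs, and 48 and 67 cells held 3 or more.

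Levels of GPC2, L1CAM and NCAM1 differed with the mitochondrial share of the kept cells. In the 70 cells of SplitA and 104 of SplitB with 15% or more mitochondrial UMIs, GPC2 was at 70.7 and 64.3 CPM, against 24.1 and 27.6 CPM in the cells below 15%. L1CAM was at 137 and 120 CPM, against 52.8 and 59.0 CPM. The counting intervals of both genes were apart in both flasks. NCAM1 was at 155 and 149 CPM, against 98.6 and 103 CPM, with intervals apart in SplitB only. The intervals of the other members overlapped in both flasks, with CD276 at 37.7 and 43.8 CPM against 33.3 and 39.0 CPM. Median depth was 2703.5 and 2836.5 UMIs in the cells at 15% or more and 6329 and 6579 below, and the part of depth was not tested.

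The antigens were then counted together in each cell. At least 1 of the 4 surface antigens had a UMI in 622 cells of SplitA, 69.2% (66.1 to 72.2), and in 855 cells of SplitB, 71.5% (68.9 to 74.1). Equal proportions would give 71.7% and 75.4%. Cells without any of the 4 numbered 277 (30.8%) and 340 (28.5%), cells with 1 antigen 375 and 463, cells with 2 antigens 186 and 293, cells with 3 antigens 56 and 85, and cells with all 4 antigens 5 and 14. At 2000 UMIs a cell the share with at least 1 antigen was 33.4% in SplitA and 37.9% in SplitB, with 35.1% and 37.5% by the formula. The share of cells that appeared positive thus depended on depth.

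**Figure D3:**
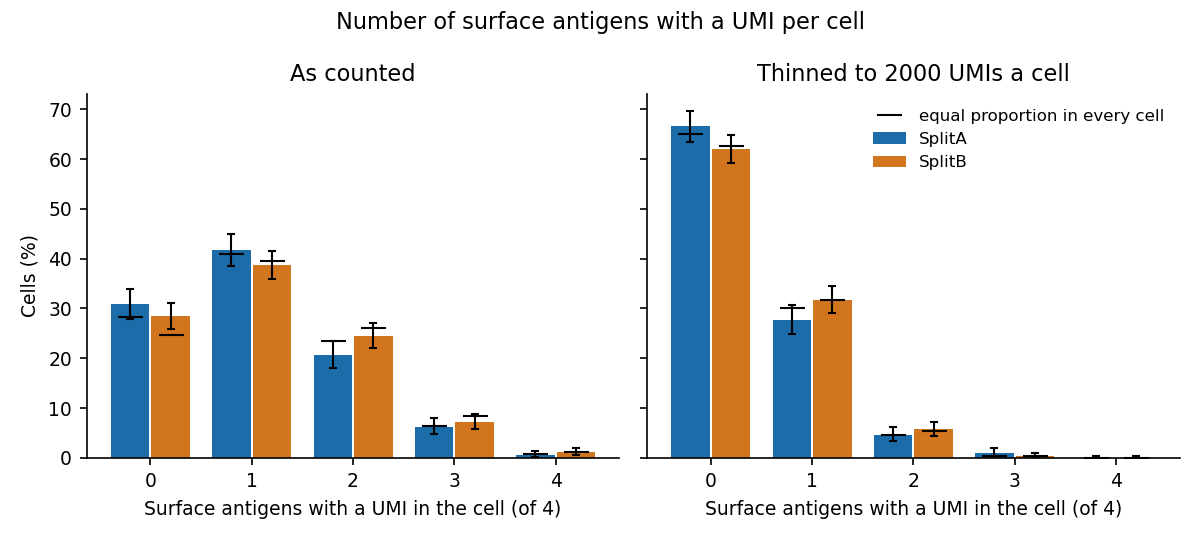
Share of cells (y axis, percent) by the number of the 4 surface antigens with a UMI (x axis), as counted (left) and thinned to 2000 UMIs a cell (right). Bars are the flasks with exact binomial 95% intervals and black dashes are the shares given by equal proportions in every cell; 30.8% and 28.5% of cells had none of the 4 antigens as counted.

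No cell had UMIs of both ST8SIA1 and B4GALNT1, the successive enzymes of GD2 synthesis. The 0 of 899 cells and 0 of 1195 cells allow shares of up to 0.409% and 0.308% by the exact binomial interval. The formula for independent counts at equal proportions gives 0.248 and 0.220 cells, so that joint presence was not detectable at this depth. In the 6 cells with an ST8SIA1 UMI, 1 also had ST3GAL5 and 4 also had L1CAM. L1CAM and NCAM1 were seen together in 110 cells of SplitA and 191 of SplitB, against 135 and 209 by the formula, but in 20 and 31 cells after thinning, against 17.3 and 26.1. As counted, the formula also lay above the share of each of these genes in both flasks. In SplitB it gave 33.0% against 28.6% for L1CAM and 48.6% against 45.4% for NCAM1. Pair counts below the formula therefore do not show that 2 genes avoid each other. GPC2 and L1CAM were together in 39 and 59 cells, against 45.8 and 77.9, and after thinning in 8 and 8 cells, against 4.77 and 7.83. The direction of the difference from the formula thus differed between counted and thinned cells for L1CAM and NCAM1. For GPC2 and L1CAM the thinned count in SplitB was within 1 cell of the formula. Thinning was 1 random draw, and its formula used the proportions of the unthinned sums, in which deep cells weigh more. The part of depth in the change of direction was therefore not tested. Of 28 pairs, 18 had at least 5 cells by the formula in both flasks, and 2 of these were above it and 10 below it in both. After thinning 4 pairs had at least 5, of which 2 were above and 0 below it in both flasks.

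The culture was not synchronized, and the question whether the members differ by cell cycle phase was put by summing UMIs per flask and phase. Phases were assigned from cycle genes, which were then left out of the tests, and gave 369 and 505 cells of G1, 276 and 348 of S, and 254 and 342 of G2M in SplitA and SplitB. Median UMIs per cell were 7078 and 6969 in G2M and 5830 and 6130 in G1. The phases are ranges of a score, and 61 and 59 cells changed phase with an updated list of cycle genes. Between G2M and G1, 29.6% of the 10428 genes tested with edgeR's quasi-likelihood test passed a Benjamini-Hochberg adjusted p of 0.05, and 2 of the 6 members tested did. With flask as a block, the replication behind the p-values is how consistent the differences between phases were in the 2 flasks. The spread of each gene was estimated in part from the other genes, so small p-values do not rest on these flasks alone. Both flasks came from 1 culture and 1 library. ST8SIA1 and B3GALT4 did not pass the filter on low counts. In sums of cells a change in the number of cells with a transcript cannot be told apart from a change in transcripts per cell.

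NCAM1 rose from G1 to G2M. It was at 86.1 CPM in G1 and 125 CPM in G2M in SplitA, and at 87.1 and 119 CPM in SplitB. By CPM these were log2 ratios of 0.54 and 0.45. The log2 fold change of the test was 0.37 (SE 0.098, edgeR adjusted p = 0.00213). It includes TMM, edgeR's scaling of the totals, which the CPM values do not. Here and below, fold changes of the tests are therefore not ratios of the CPM values. The S phase lay between, at 93.4 and 116 CPM, and its difference from G1 was 0.20 on the log2 scale (SE 0.104, adjusted p = 0.179). Both flasks were higher in G2M, and neither flask's counting intervals of G1 and G2M overlapped.

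B4GALNT1 rose as well. It was at 7.31 CPM in G1 (17 UMIs) and 16.7 CPM in G2M (31 UMIs) in SplitA, and at 6.52 (22 UMIs) and 10.6 CPM (26 UMIs) in SplitB, a log2 fold change of 0.82 (SE 0.301, adjusted p = 0.0303). The counting intervals of G1 and G2M overlapped in both flasks. They were 4.26 to 11.7 and 11.3 to 23.7 CPM in SplitA, and 4.09 to 9.87 and 6.94 to 15.6 CPM in SplitB. Its S phase values were 10.8 and 12.9 CPM, a log2 difference of 0.71 (95% interval 0.095 to 1.33, adjusted p = 0.109).

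The other 4 tested members did not pass. The log2 differences of G2M from G1 were 0.26 for GPC2 (95% interval -0.089 to 0.62), 0.12 for CD276 (-0.18 to 0.42), -0.14 for ST3GAL5 (-0.67 to 0.39) and -0.28 for L1CAM (-0.52 to -0.03, adjusted p = 0.0883). By CPM the log2 ratios of G2M to G1 for L1CAM were -0.14 in SplitA and -0.17 in SplitB. Between S and G1, 19.2% of genes and 0 of the 6 members passed in edgeR. A single member, B4GALNT1, had an unadjusted p below 0.05 (0.0267), and 0 members passed with DESeq2. With the DESeq2 test neither NCAM1 (adjusted p = 0.253) nor B4GALNT1 (0.487) passed between G2M and G1. B4GALNT1 also did not pass with a minimum of 300 genes (0.276) or 1500 genes (0.0595) per cell, whereas L1CAM then passed (log2 fold change -0.36, adjusted p = 0.012, and -0.33, 0.0475).

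**Figure D4:**
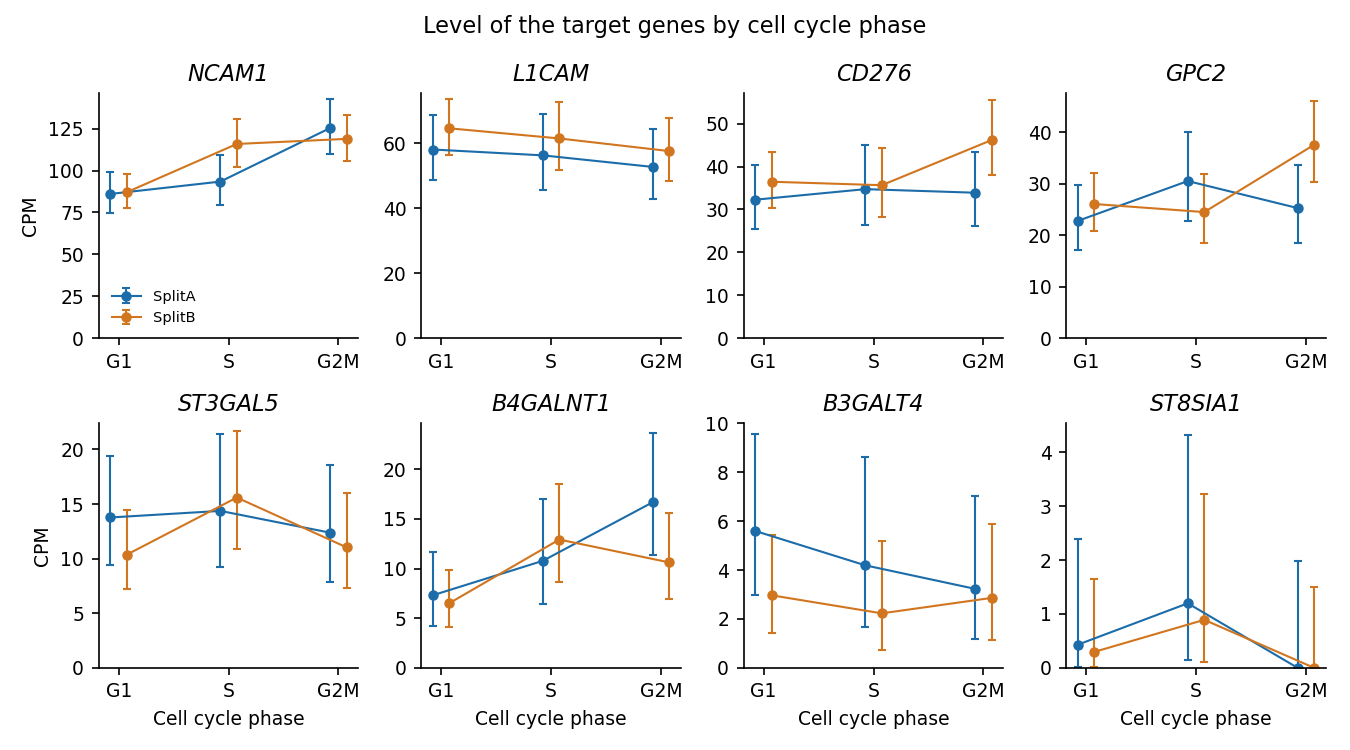
Level (y axis, CPM) of each target gene by cell cycle phase (x axis) in SplitA and SplitB, with exact Poisson 95% intervals of the summed UMIs. NCAM1 lies at 86.1 and 87.1 CPM in G1 and at 125 and 119 CPM in G2M; ST8SIA1 rests on 6 UMIs.

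Neuroblastoma lines can hold adrenergic and mesenchymal cell states, and antigens such as GD2 have been studied in relation to them. Cells of each flask were therefore ordered by the share of their UMIs on 18 mesenchymal genes and cut into terciles. LGALS1, a galectin, held 61.2% of the UMIs of this list, S100A6 11.5% and TPM1 10.8%, while CAV1, ANXA1 and PRRX1 had none and CD44 25 UMIs. The terciles are ranges of this share and not cell states, and 141 and 242 cells lay within 10% of a boundary. The list share had medians of 0.0918% and 0.0935% in the low terciles and 0.449% and 0.473% in the high terciles. The median share of UMIs on the 12 adrenergic genes was not lower in the high tercile, at 0.418% and 0.405%, than in the low tercile, at 0.319% and 0.295%.

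Phase and depth moved with the terciles. G1 cells made up 22.3% and 26.8% of the low tercile and 62.5% and 59.3% of the high tercile, and the median depth was 6950 and 7251 UMIs in the low and 5131 and 5552 in the high tercile. Each result between terciles was therefore also fitted with phase as a further term, with the terciles cut within quartiles of depth, and with a list without LGALS1, alternatives chosen after the data had been seen. Between the high and the low tercile, 23.6% of the 10583 genes tested passed in edgeR, and 4 of the 6 members tested passed, 2 higher and 2 lower.

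L1CAM rose with the list share. It was at 43.8, 53.5 and 73.2 CPM in the low, middle and high tercile of SplitA and at 38.9, 58.6 and 90.0 CPM in SplitB, a log2 fold change between high and low of 0.92 (SE 0.131, adjusted p = 4.87e-10). It was 0.89 with phase as a further term, 0.91 within depth quartiles and 0.96 without LGALS1. The counting intervals of the high and low terciles did not overlap in either flask.

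NCAM1 rose too, from 79.8 through 104 to 122 CPM in SplitA and from 83.0 through 109 to 125 CPM in SplitB. The log2 fold change was 0.50 (SE 0.104, adjusted p = 3.31e-05), and it was 0.65 with phase as a further term, 0.40 without LGALS1 and 0.30 within depth quartiles (adjusted p = 0.0214). NCAM1 also varied with depth, at 139 and 143 CPM in the shallowest quartile of cells and 87.7 and 99.3 CPM in the deepest quartile. L1CAM varied with depth too, at 77.5 and 84.5 CPM in the shallowest quartile and 47.3 and 44.5 CPM in quartile 3. In the deepest quartile L1CAM was at 57.3 and 65.7 CPM. The part of mitochondrial share, phase or tercile in these differences with depth was not tested.

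GPC2 and ST3GAL5 fell. GPC2 was at 36.1 CPM in the low and 18.4 CPM in the high tercile of SplitA, and at 33.6 and 26.1 CPM in SplitB, a log2 fold change of -0.69 (SE 0.185, adjusted p = 0.00181). Its counting intervals overlapped in SplitB. ST3GAL5 was at 17.8 CPM (37 UMIs) and 6.34 CPM (11 UMIs) in SplitA, and at 13.3 (38 UMIs) and 8.96 CPM (23 UMIs) in SplitB, a log2 fold change of -1.03 (SE 0.295, adjusted p = 0.00411). The intervals of ST3GAL5 overlapped in SplitB as well. With phase as a further term the values were -0.71 for GPC2 and -1.14 for ST3GAL5, within depth quartiles -0.72 and -1.09, and without LGALS1 -0.72 and -0.99, and all of these passed. With the DESeq2 test L1CAM (adjusted p = 0.00369) and NCAM1 (0.0498) passed, and GPC2 (0.218) and ST3GAL5 (0.239) did not.

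CD276 and B4GALNT1 did not pass. CD276 was at 24.5 and 41.5 CPM in the low and high tercile of SplitA and at 36.8 and 38.9 CPM in SplitB, a log2 difference of 0.25 (95% interval -0.08 to 0.57). B4GALNT1 was at 10.6 and 12.7 CPM in SplitA and at 7.71 and 8.57 CPM in SplitB, a difference of 0.11 (-0.50 to 0.73). B3GALT4, which did not pass the filter on low counts, had 7 and 11 UMIs in the low and high tercile of SplitA and 1 and 10 in SplitB. It was tested under 5 of the alternatives and passed under 2, with a minimum of 300 genes (log2 fold change 1.51, adjusted p = 0.0199) and with the S100 genes left out of the list (1.71, 0.0303), so that 5 of 7 members tested then passed in edgeR. It did not pass without the filter (1.48, 0.0715), with a hashtag limit of 100 (1.53, 0.0722) or with a cut at the median (0.67, 0.325).

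**Figure D5:**
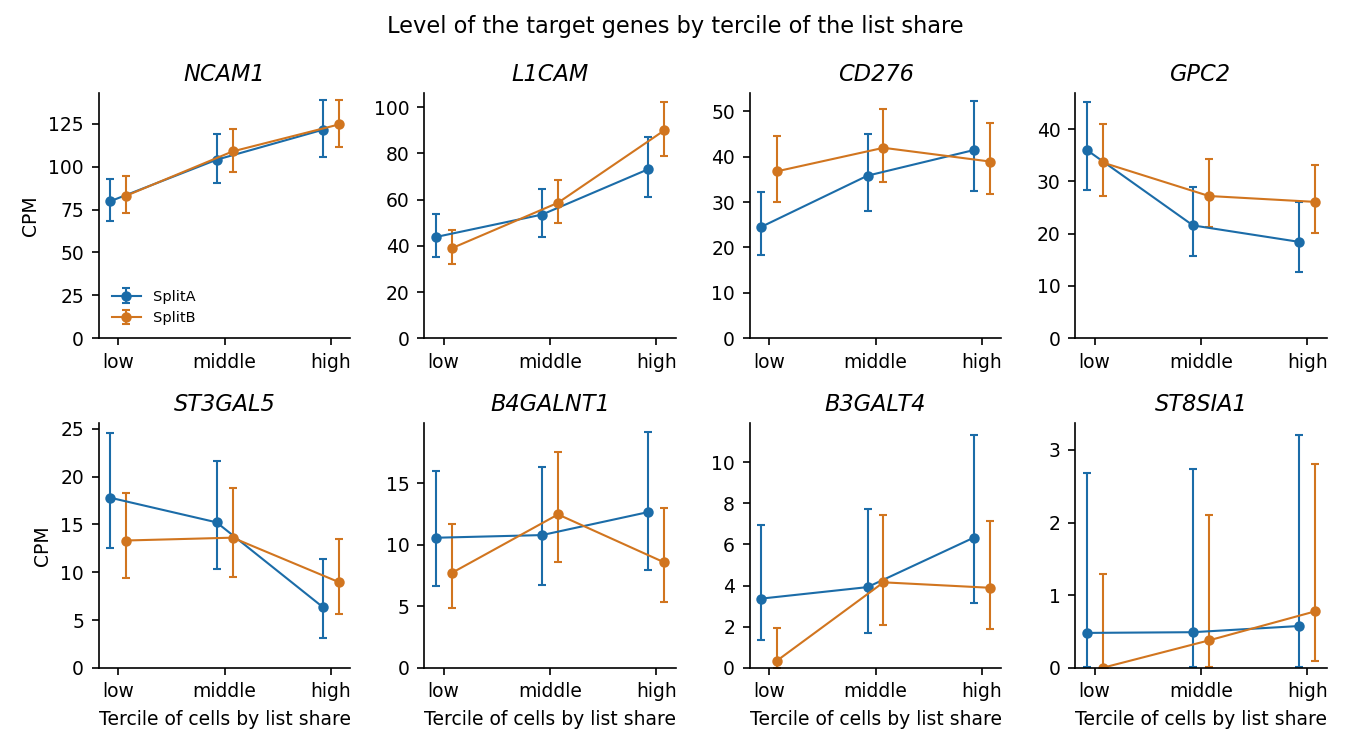
Level (y axis, CPM) of each target gene by tercile of cells (x axis) in order of the share of UMIs on the mesenchymal list, in SplitA and SplitB, with exact Poisson 95% intervals. L1CAM climbs from 43.8 to 73.2 CPM and from 38.9 to 90.0 CPM, and GPC2 goes down from 36.1 to 18.4 CPM and from 33.6 to 26.1 CPM.

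The promoters of the 3 members with opposite directions across the terciles, L1CAM on one side and GPC2 and ST3GAL5 on the other, are printed from RefSeq (GRCh38.p14), 250 bases before to 50 after the start. An entry was matched by symbol for 5 of the 8 members, B4GALNT1, B3GALT4 and NCAM1 being without a match. The windows of L1CAM and ST3GAL5 lie inside the GENCODE spans of these genes and not at their outer ends. Which starts the cells used was not measured. Capitals mark the GC box GGGCGG, the CCAAT box CCAAT and the TATA box TATAAA on either strand.
L1CAM, chrX:153875895-153876194, minus strand: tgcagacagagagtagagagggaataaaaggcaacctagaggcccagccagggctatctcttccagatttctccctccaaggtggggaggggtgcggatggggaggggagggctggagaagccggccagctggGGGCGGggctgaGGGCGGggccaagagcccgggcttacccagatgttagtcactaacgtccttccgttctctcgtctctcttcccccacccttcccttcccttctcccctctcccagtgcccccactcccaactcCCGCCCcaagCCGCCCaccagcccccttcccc
GPC2, chr7:100177332-100177631, minus strand: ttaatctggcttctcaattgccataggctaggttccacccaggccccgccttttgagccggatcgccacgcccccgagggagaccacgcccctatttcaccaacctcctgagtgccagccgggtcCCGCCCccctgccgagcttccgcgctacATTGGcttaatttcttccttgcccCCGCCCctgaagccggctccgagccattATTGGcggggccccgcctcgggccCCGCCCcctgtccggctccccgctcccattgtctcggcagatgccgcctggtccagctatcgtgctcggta
ST3GAL5, chr2:85888941-85889240, minus strand: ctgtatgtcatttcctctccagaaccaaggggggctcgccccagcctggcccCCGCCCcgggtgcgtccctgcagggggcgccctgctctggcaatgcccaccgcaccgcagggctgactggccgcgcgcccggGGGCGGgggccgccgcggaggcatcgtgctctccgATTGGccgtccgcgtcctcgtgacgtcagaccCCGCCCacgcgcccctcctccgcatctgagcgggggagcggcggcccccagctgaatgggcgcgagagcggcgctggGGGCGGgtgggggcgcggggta
The L1CAM window had 4 GC boxes, no CCAAT box and 10 CpG dinucleotides, that of GPC2 3 GC boxes, 2 CCAAT boxes and 24 CpG, and that of ST3GAL5 4 GC boxes, 1 CCAAT box and 36 CpG. Of 27305 promoter windows of this length, 44.6% held a GC box, 35.7% a CCAAT box and 11.95% a TATA box, and the median number of CpG was 14. A TATAAA was not among the letters of any of the 5 windows. The counts describe the sequence and were not related to the levels.

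Few genes reached the limit set for a profile over cells like that of a member. Of the 5191 genes detected in 10% or more of the cells of each flask, 1 reached a Pearson correlation of 0.15 with a member in both flasks, CHGB with L1CAM, at 0.170 in SplitA and 0.155 in SplitB. CHGB encodes chromogranin B, a protein of secretory granules, and was at 188 CPM. No gene reached 0.15 in both flasks with any other member. Cells share depth and library, and no test was made of these correlations. Counting noise lowers the correlations of genes with few UMIs, such as ST8SIA1 with 6 and B3GALT4 with 48 over both flasks. A value below 0.15 therefore does not show that no gene varies with a member.

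The route to GD2 was followed upstream and downstream with lists of related genes. Over the 8 lists other than the adrenergic and mesenchymal ones, 10 of 45 tests passed in edgeR between G2M and G1, 2 of 45 between S and G1 and 6 of 44 between the terciles, shares below the 29.6%, 19.2% and 23.6% of all genes. Genes were not matched for level, so these lower shares do not show that the list genes vary less than others. With DESeq2 1 gene passed in each of these comparisons, DLK1. The other changes given below for these lists passed in edgeR only. The ceramide and lactosylceramide genes were measured throughout: all 10 had UMIs, led by the ceramide synthases CERS2 at 55.8 CPM and CERS6 at 37.8 CPM, and the glucosylceramide synthase UGCG stood at 9.38 CPM. Of 9 tested between G2M and G1, B4GALT5, a lactosylceramide synthase, rose (log2 fold change 0.88), CERS6 rose (0.57) and KDSR, a reductase of sphingolipid synthesis, fell by 0.72. In the high tercile 1 of 9, CERS2, rose (0.34), below the 23.6% of all genes that passed.

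Of the 12 other ganglioside and glycolipid transferases 9 had UMIs, with ST3GAL2 at 24.5 CPM and ST6GALNAC4 at 15.8 CPM the highest. ST8SIA5, another sialyltransferase of gangliosides, had 3 UMIs, close to ST8SIA1. ST6GALNAC5, a sialyltransferase of brain gangliosides, rose in G2M (log2 fold change 2.42) and in S (2.31) from 47 UMIs in all, and B3GNT5 rose in G2M (0.92). 

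The supply of CMP-sialic acid was present, with 5 of 5 genes detected, CMAS at 32.0 CPM and NANS, the sialic acid synthase, at 13.7 CPM. NANS fell between G1 and G2M by 0.79 on the log2 scale. Among 10 genes of ganglioside breakdown the saposin precursor PSAP was at 123 CPM and the hexosaminidase subunit HEXA at 25.1 CPM. PSAP rose in the high tercile (0.39) in edgeR but not in DESeq2, as 1 of 9 tested against 23.6% of all genes.

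Relatives of the antigens were lower. In the list of polysialic acid enzymes and L1 and NCAM relatives, NRCAM was at 25.6 CPM and rose in G2M (0.68), ST8SIA2, a polysialyltransferase of NCAM1, was at 7.12 CPM, and CHL1 had no UMI. Among 5 other glypicans GPC6 was highest at 14.7 CPM and GPC4 had no UMI, so that GPC2 at 27.5 CPM was above each of them. Of 9 B7 family members and checkpoint ligands, 5 had no UMI, CD274 (PD-L1) had 4, and only the CD47 gene, at 16.8 CPM, and NCR3LG1, at 3.34 CPM, had over 4. NCR3LG1 had 18 UMIs in SplitA and 29 in SplitB. It rose in G2M (2.41) and fell by 1.71 in the high tercile, where CD47 rose (0.60).

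Of 14 other surface targets discussed for neuroblastoma 13 had UMIs. The notch family ligand DLK1 was at 2614 CPM, CD24 at 168 CPM, SLC6A2, the noradrenaline transporter, at 45.1 CPM, and CNTFR, a neurotrophic cytokine receptor, at 66.6 CPM. DLK1 and SLC6A2 fell between G1 and G2M, by 1.35 and 0.44 on the log2 scale, and rose in the high tercile, by 1.58 and 0.71. Of the 11 adrenergic genes tested 7 rose in the high tercile, with CHGB at 2.79 and CHGA at 0.68, and 2 fell, among them ISL1, a homeobox factor, by 0.45, whereas 23.6% of all genes passed. In the same list 1 rose and 7 fell between G1 and G2M, and 1 rose and 8 fell between G1 and S, where 29.6% and 19.2% of all genes passed. G1 cells made up more of the high tercile than of the low one.

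Outside the adrenergic and mesenchymal lists, edgeR made 18 calls over the 3 comparisons and DESeq2 3. In the 12 comparisons of a related list in which no gene passed in edgeR, 8 of 54 tests had an unadjusted p below 0.05 and 0 passed with DESeq2. The 3 calls of DESeq2 were those of DLK1, 1 in each comparison.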

How the data were processed

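Untreated SH-SY5Y cells of 2 flasks were measured by CITE-seq with hashtag antibodies. By the paper's account, reads were mapped to GRCh38 with STAR 2.7, and the alignments were processed with Cell Ranger 4.0.0 to give counts. The authors deposited a matrix of UMI counts per gene, cell and hashtag, without normalization. The gene annotation version and strand setting were not given in the sources used here. All sample columns were used.

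Cells were assigned to a flask where 1 hashtag was at least 3 times the other and the other was at most 185 counts, and were kept with at least 1000 genes. Hashtags remove doublets of different flasks only, and no doublet caller was run. The hashtag library's own file was not analysed here. The labels give both flasks the same name, and the hashtag of each flask was taken from the study's code.

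Levels are UMIs summed per flask and divided by the flask total, times 1000000 (CPM), with exact Poisson intervals, and shares of cells have exact binomial (Clopper-Pearson) intervals, at 95%. As a floor, a count of 0 was taken to allow 3 counts, and the limits printed for a count of 0 are those of the exact intervals. A flask against a flask allows no test, and cells were not used as replicates. Phases came from CellCycleScoring in Seurat 5.3.0. UMIs were summed over 6 combinations of flask and class and fitted with edgeR 4.0.16 (TMM, filterByExpr, quasi-likelihood test, flask as a block, Benjamini-Hochberg adjustment at 0.05) in R 4.3.3, leaving out the genes that defined the classes. The flask is the pairing, since each flask gave every class. DESeq2 1.42.0 was an alternative. Standard errors are the log2 fold change divided by the root of the F statistic, and intervals of log2 differences are normal. The scripts were tested on simulated data. Likeness is the Pearson correlation over cells of log-normalized counts (scale factor of 10000). Intervals used scipy 1.17.1, tables pandas 2.3.3, matrices numpy 2.4.6 and plots matplotlib 3.10.9, in Python 3.11.15. Positions are those of GENCODE release 44 and promoters those of RefSeq. Of the table's identifiers, 33113 had a symbol.

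The members and lists were chosen with earlier results of these data known. Named genes are the 8 members, genes like them at a correlation of at least 0.15 in both flasks, and from each list the 3 with the highest CPM and those that passed a test, up to 5 a list. TH, UGCG, ST8SIA5, CHL1 and GPC4 and the adrenergic genes beyond 5 were named in addition, after their values had been seen. The values of 1 gene of the adrenergic list are not reported here. The alternatives were cell limits, normalization, filters, the test, the block, the lists and leaving out a flask. Those added after the data had been seen were phase or tercile as a further term, the list without LGALS1, and terciles within quartiles of depth.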

Additional observations from a re-analysis of the deposited data

Results flagged for a closer look

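Barcodes outside the kept cells also held UMIs of the 8 genes, above the 3 counts that a count of 0 allows. In the 690 barcodes with 1 hashtag and under 1000 genes, the 8 genes summed to 437 CPM (exact Poisson 95% interval 397 to 480) from 431 UMIs, against 246 CPM in the kept cells of SplitA and 259 CPM in those of SplitB. The difference was present in both flasks, at 451 CPM in SplitA and 427 CPM in SplitB. NCAM1 was at 205 CPM, L1CAM at 114 CPM and GPC2 at 52.7 CPM there, against 103, 59.2 and 27.7 CPM over all kept cells. CD276 was at 39.5 CPM, B4GALNT1 at 5.07 CPM from 5 UMIs, and ST8SIA1 had 0 UMIs, which allows up to 3.74 CPM by the exact Poisson interval. Mitochondrial genes took 33.8% of the UMIs of these barcodes and 9.35% in kept cells, and without them the sums were 660 and 280 CPM. The part of cell damage or of depth in the difference was not tested.

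In the 95 barcodes called multiplets the 8 genes summed to 313 CPM (270 to 361) from 188 UMIs. ST3GAL5 was at 26.6 CPM there (15.2 to 43.2), against 12.6 CPM over all kept cells, and NCAM1 at 128 CPM (101 to 160).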

How the results depend on the processing

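The summed level of the 8 genes, 252 CPM as a mean of the flasks, was 265 CPM with a minimum of 300 genes and 278 CPM without mitochondrial genes in the total, and 246 to 259 CPM with either flask left out. The share of cells with an antigen, 70.4%, was 63.7% with a minimum of 300 genes, 73.3% with 1500 genes and 35.6% at 2000 UMIs a cell (69.2 to 71.5% with a flask left out). The share with ST8SIA1 and B4GALNT1 stayed at 0. No alternative could change this, as each removed cells or UMIs or added barcodes without an ST8SIA1 UMI. The median variance ratio of the members seen in at least 5% of cells was 1.07 and stayed between 1.04 and 1.09. At 2000 UMIs a cell ST3GAL5 and B4GALNT1 fell below 5% and were not in this median. The ratios of single members, such as L1CAM and NCAM1, were not given for the alternatives.

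With DESeq2, 0 members and 977 genes passed between G2M and G1, 0 members and 602 genes between S and G1, and 2 members and 606 genes between the terciles, against 2 and 3083, 0 and 2000, and 4 and 2502. With tercile as a further term 1 member passed between S and G1, NCAM1 at 0.33, and with phase as a further term 1643 genes passed between the terciles. Spearman correlation or thinning left 0 genes at 0.15. Leaving out the replicate block gave 3066, 1975 and 2437 genes and changed no member's call.

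Directions reversed only among differences that had not passed. CD276 between G2M and G1 was -0.087 with a minimum of 300 genes. Between S and G1, GPC2 was -0.13 with 1500 genes, -0.16 under 15% mitochondrial, -0.019 with updated cycle genes and -0.12 with tercile as a further term, which also gave ST3GAL5 -0.0085 and L1CAM 0.057. B4GALNT1 between the terciles was -0.081 with a cut at the median and -0.013 without LGALS1. With a flask left out, values are log2 ratios of CPM in the other flask, without edgeR's TMM scaling. ST3GAL5 was then 0.089 to -0.15 between G2M and G1. Between S and G1 GPC2 was -0.090 to 0.42 and CD276 -0.032 to 0.11. Near 0 the sign of such a ratio is not comparable with that of the edgeR value. The cause of the reversals was not tested. Depth limits ST8SIA1 and B3GALT4. ST8SIA1 was tested only without the filter on low counts and did not pass (edgeR adjusted p = 0.702, 0.849 and 0.789), and B3GALT4 passed only between the terciles, with a minimum of 300 genes and with the S100 genes left out.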
